A study of Mus musculus with 2 samples.

Results

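The cells described here are naive-gate CD8 T cells of the gastric mucosa, 1233 of 32372 filtered CD45+ cells (leukocytes carry the surface protein CD45). They were chosen on their own transcripts, counted as unique molecular identifiers (UMIs, 1 per captured RNA molecule). Each had at least 1 UMI of Cd3d, Cd3e and Cd3g together, at least 2 of Cd8a and Cd8b1, 0 of Cd4 and 0 of Cd79a. Each also had at least 2 UMIs of Dapl1, Lef1, Nsg2 and Ccr7 together and 0 of Pdcd1, Havcr2, Gzmk, Gzmb and Jchain. Those values chose the cells and are not results. Of them 1041 came from IL-27 mice and 192 from PBS mice.

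Both libraries came from TxA23 mice, which carry a transgenic T cell receptor and develop autoimmune gastritis, so the PBS mice have the disease too. At 3 months of age the mice were given an osmotic minipump under the skin, and cells were taken 4 weeks later. In the IL-27 group the pump held 800 ng of a recombinant IL-27 in which the p28 and EBI3 subunits are covalently joined (4 ug/mL in 200 uL). In the PBS group it held vehicle. Cells were flushed from the mucosa and sorted as live CD45+ cells, and RNA was read from its 5' end. Cells of 3 female mice were pooled for IL-27, and cells of 1 female and 1 male for PBS, so treatment, sex and animal cannot be told apart. Barcode suffixes split the libraries into 3 IL-27 wells and 2 PBS wells, and the labels tie no well to a mouse. With 1 library per group, the comparison of IL-27 with PBS has no replicate check.

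Naive CD8 T cells leave the thymus, circulate through lymphoid organs with the help of the chemokine receptor CCR7, and become cytotoxic cells once they meet antigen. In mice some antigen-inexperienced CD8 T cells take on memory traits in response to cytokines such as IL-15 and IL-4, and are called virtual memory cells. Interleukin-27 signals through IL-27RA and gp130 (Il6st) to transcription factors of the STAT family, among them STAT3, and signals of this family also drive interferon-stimulated genes.

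The filtered libraries held 20579 IL-27 and 11793 PBS cells, with median UMIs per cell of 3079 and 2958. PBS well 2 stood apart from the other wells. Of the naive-gate CD8 T cells, the IL-27 wells gave 497, 268 and 276, PBS well 1 gave 182 and PBS well 2 gave 10. Of 220 effector-gate CD8 T cells, which serve as a comparator, the IL-27 wells gave 4, 18 and 6, PBS well 1 gave 7 and PBS well 2 gave 185. Values of the PBS library therefore rest mostly on PBS well 1, which held 1197867 of the 1282345 PBS UMIs in naive-gate CD8 T cells. The IL-27 members held 6468460 UMIs. The libraries shared 355 barcode sequences among all 33173 barcodes before filtering, and pairs of wells shared 46 to 71.

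Genes that the gate did not use were mostly as the label of naive CD8 T cells would have them. Levels are in CPM (UMIs scaled to a common library total). Klf2, which drives egress genes, was at 500 CPM in naive-gate CD8 T cells, against 62.3 in effector-gate CD8 T cells and 531 in naive-gate CD4 T cells. Il7r (interleukin-7 receptor) was at 241 CPM in the members, 55.9 in the effector gate and 125 in the naive CD4 gate. Gzmm, a granzyme given as a marker of these cells, was at 126 CPM in the members, 3.66 in the effector gate and 0.232 in the naive CD4 gate. Tcf7, the factor TCF-1, was at 320 CPM in members, 41.2 in the effector gate, 561 in the naive CD4 gate and 2.66 in B cells. Markers of other lineages were not all low or absent. Summed B cell markers were at 280 CPM in IL-27 and 278 CPM in PBS members, against 38825 and 38288 CPM in B cells. Myeloid markers were at 174 CPM in IL-27 and 416 CPM in PBS members, and gamma-delta T cell markers at 96.8 and 167 CPM. Markers of CD4 and regulatory T cells were at 132 and 83.4 CPM. The lists that follow were lower. Of 7 NK cell markers Ncr1 and Klra8 were at 0, and the list summed to 11.6 CPM in IL-27 and 39.0 CPM in PBS members. Of 5 mast cell markers Cpa3 and Fcer1a were at 0, with sums of 2.63 CPM in IL-27 and 5.46 CPM in PBS. Of 12 gastric epithelial markers 5 were at 0, Atp4a of parietal cells among them, with sums of 13.9 CPM in IL-27 and 1.56 CPM in PBS.

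**Figure D1:**
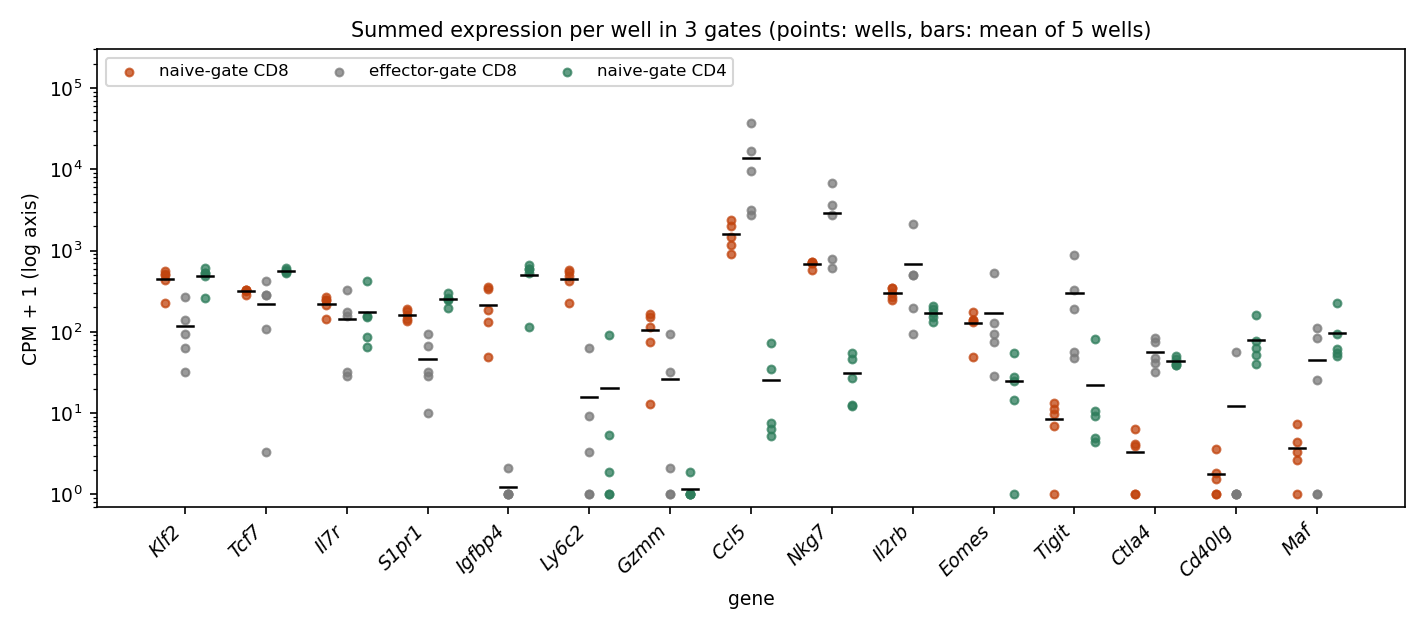
Summed expression (CPM + 1, log axis) of 15 genes in naive-gate CD8, effector-gate CD8 and naive-gate CD4 T cells, with 1 point per well and a bar at the mean of 5 wells. Gzmm averaged 103 CPM in naive-gate CD8 and 0.173 CPM in naive-gate CD4 T cells (SD 62.1 and 0.387), and Klf2 was lower in the effector gate than in both naive gates.

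In another respect the cells were not uniformly naive. Ccl5, a chemokine of effector and memory T cells that the gate did not use, had a UMI in 49.4% of naive-gate CD8 T cells (exact 95% interval 46.6 to 52.2%). The share was 93.2% of effector-gate CD8 T cells, 2.59% of naive-gate CD4 T cells and 6.20% of B cells, which should lack it. Median depths were 6212 UMIs in naive-gate CD8 T cells, 4178.5 in the effector gate, 3963 in the naive CD4 gate and 2816 in B cells. With each cell thinned to 1000 UMIs the shares were 36.0% in naive-gate CD8 T cells, 90.7% in the effector gate, 0.731% in the naive CD4 gate and 2.39% in B cells. In full counts, 499 members (40.5%) had at least 3 Ccl5 UMIs, 110 had 1 or 2, and 624 had 0. Median depth was 6497 UMIs in cells with at least 3 and 5939 in cells with 0.

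The cells with at least 3 Ccl5 UMIs and those with 0 differed in many other genes. This split was made after the values had been seen, so the following are descriptions with no test. Each gene named as higher or lower was so within each of the 4 wells with enough cells (PBS well 2 had 4 cells in each range). Il2rb, the receptor chain for IL-2 and IL-15, was at 425 CPM in cells with at least 3 Ccl5 UMIs and 176 CPM in cells with 0. Eomes was at 188 against 108 CPM, and Tbx21 (T-bet) at 49.6 against 15.6 CPM. Both encode T-box factors of memory and effector CD8 T cells. The chemokine receptor Cxcr3 was at 90.5 against 30.5 CPM, and Gzmm at 222 against 45.3 CPM. Il7r was at 317 against 171 CPM. Nsg2 was at 170 against 77.1 CPM, but the gate used it, so its values are not results. The NK-type receptor genes Klrc1 and Klrk1 were at 48.1 against 7.03 CPM and at 68.2 against 30.7 CPM. Klf2 hardly differed, at 494 against 498 CPM. Markers of gamma-delta T cells moved with this split. Trdc, the delta constant gene, was at 99.2 against 33.3 CPM, Trgv2 at 37.8 against 11.5 CPM and Tcrg-C4 at 9.92 against 4.95 CPM. S100a6, a calcium-binding protein of activated cells, was at 95.2 against 29.2 CPM. The part of gamma-delta T cells in the differences was not tested.

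Genes lower in cells with at least 3 Ccl5 UMIs included several that mark recent thymic emigrants or unstimulated cells. Igfbp4, a secreted protein typical of naive T cells, was at 69.4 CPM in cells with at least 3 Ccl5 UMIs, against 370 CPM in cells with 0. Ikzf2 (Helios) was at 5.89 against 91.2 CPM and Sox4 at 1.55 against 27.4 CPM. Ccr9, the receptor for gut and thymus homing, was at 0.62 against 19.3 CPM. The integrin chains Itgae (CD103) and Itga4 were at 5.89 against 31.3 CPM and at 19.5 against 82.3 CPM. Dapl1 and Lef1 were at 150 against 289 CPM and at 255 against 362 CPM. The gate required a minimum sum of these genes with Nsg2 and Ccr7, so their values are not results. The label of naive cells thus held in part, since about 1 in 2 members also carried a chemokine of memory and effector cells.

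**Figure D2:**
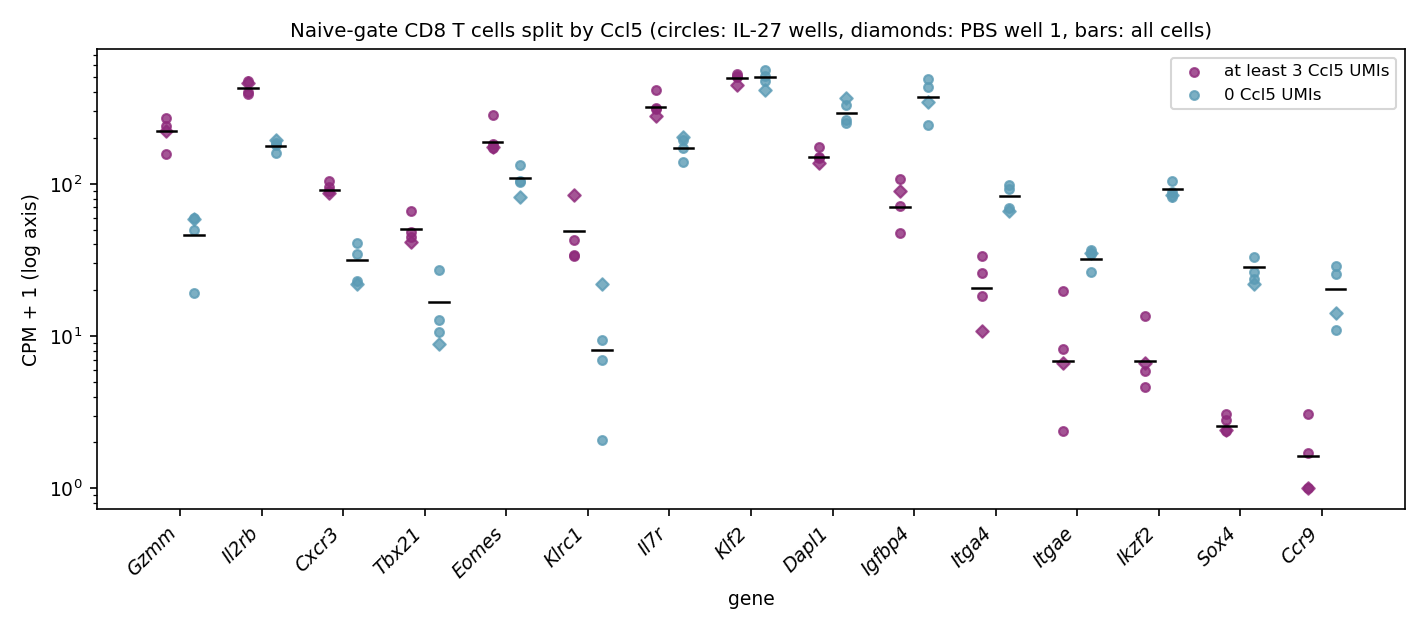
Summed expression (CPM + 1, log axis) of 15 genes in naive-gate CD8 T cells with at least 3 Ccl5 UMIs and with 0, for each IL-27 well (circles) and PBS well 1 (diamonds), with bars over all cells of the range. Gzmm, Il2rb, Cxcr3, Tbx21 and Eomes lie higher, and Igfbp4, Ikzf2, Sox4 and Ccr9 lower, in the cells with at least 3.

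The share of cells with at least 3 Ccl5 UMIs was 37.4% of IL-27 members and 57.3% of PBS members. By well it was 45.7%, 34.0% and 25.7% in IL-27, against 58.2% and 40.0% in PBS. PBS well 2 lies within the IL-27 range, on 10 cells. Because the libraries differed in this share, ratios of IL-27 to PBS within the Ccl5 ranges are given for the genes described most fully.

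At the edge of the gate, cells on its 2 sides had close values. The 192 members with exactly 2 UMIs of the 4 naive genes had 167 CPM of Gzmm, 1748 CPM of Ccl5 and 94.6 CPM of Igfbp4. The 156 cells with exactly 1, just outside, had 200 CPM of Gzmm, 1795 CPM of Ccl5 and 94.9 CPM of Igfbp4. Farther out, the 115 cells with 0 had 92.7 CPM of Gzmm, 2531 CPM of Ccl5 and 52.1 CPM of Igfbp4. Farther in, the 173 members with exactly 3 had 135 CPM of Gzmm, 1942 CPM of Ccl5 and 87.7 CPM of Igfbp4. The 868 members with at least 4 had 118 CPM of Gzmm, 1203 CPM of Ccl5 and 282 CPM of Igfbp4.

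Naive-gate CD8 T cells were 5.06% of filtered cells after IL-27 and 1.63% after PBS, a ratio of 3.11 (exact 95% interval 2.66 to 3.64, counting error only). By well the shares were 6.58%, 4.46% and 3.93% in IL-27, against 2.87% and 0.183% in PBS. The wells of the libraries did not overlap. An exact two-sided permutation test over wells gave p = 0.1, the smallest p that 3 against 2 wells allow. Leaving out PBS well 2 gave a ratio of 1.76, and leaving out PBS well 1 gave 27.6. The difference was not particular to CD8 T cells. Naive-gate CD4 T cells were 3.78% of filtered cells in IL-27 and 1.59% in PBS. By well they were 3.34%, 4.46% and 3.66% in IL-27, against 2.68% and 0.330% in PBS, also without overlap.

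Among CD8 T cells, defined by the lineage genes alone, 75.4% met the naive gate in IL-27 (73.0 to 77.6%) and 40.3% in PBS (35.8 to 44.8%). By well the shares were 74.3%, 73.0% and 80.0% in IL-27, against 74.3% and 4.31% in PBS. PBS well 1 lay within the IL-27 range, the permutation p was 0.2, and the ratio of 1.87 became 1.01 without PBS well 2. The composition of CD8 T cells therefore differed between the libraries through 1 PBS well. Thinned to 1000 UMIs per cell, 19.1% of IL-27 and 7.19% of PBS CD8 T cells met the gate. PBS well 1 was then again at 19.1%, and PBS well 2 had 0 of 182, which allows a share of up to 1.65%.

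**Figure D3:**
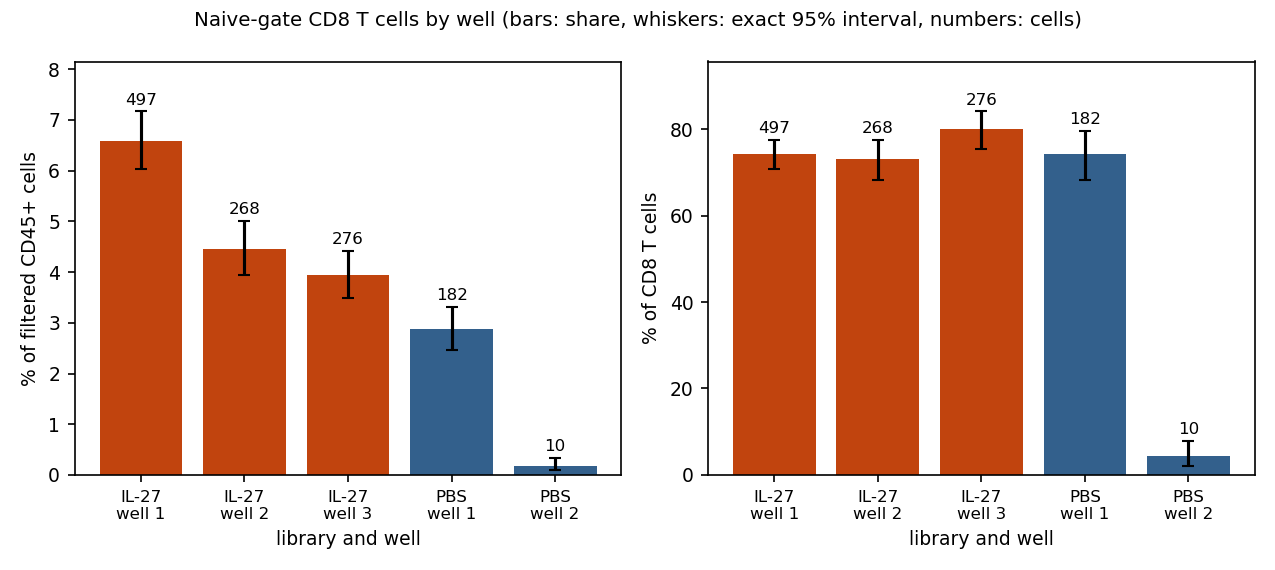
Share of naive-gate CD8 T cells among filtered CD45+ cells (left, %) and among CD8 T cells (right, %) in each well, with exact 95% intervals and the number of cells above each bar. The 3 IL-27 wells lie at 3.93 to 6.58% on the left, and PBS well 1 matches them on the right at 74.3% while PBS well 2 is at 4.31%.

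Effector-gate CD8 T cells had at least 2 UMIs of Pdcd1, Havcr2, Gzmk and Gzmb together and at most 1 of the 4 naive genes. Since the gates were cut on naive and effector genes, genes that vary with those had to differ, and the counts below are a description from which nothing is read. By edgeR's quasi-likelihood test with the well as a block and Benjamini-Hochberg adjustment, 236 of 5160 genes were higher in naive-gate CD8 T cells (4.57%) and 81 lower (1.57%), the genes of the gate left out. Of 15 naive genes outside the rule 10 were higher and none lower. For the lower genes the counts were 6 of 7 exhaustion and co-inhibitory genes and 4 of 7 cytotoxic genes. On library totals without TMM scaling (trimmed mean of M-values) the medians shifted by -0.47 on the log2 scale, and 114 genes were higher and 352 lower. DESeq2 gave 191 higher and 126 lower.

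Against the effector gate the highest fold changes were those of Ly6c1, G0s2, Igfbp4 and Ly6c2, and the lowest those of Ccl4, Tigit and Ctla4. Ly6c1, a Ly6C surface protein, averaged 66.9 ± 12.8 CPM in naive-gate CD8 T cells (SD, n = 5 wells) and had 0 UMIs in the effector gate. At a floor of 3 UMIs over that gate it was at least 23.8-fold higher. Its paralog Ly6c2, which may share reads with it, averaged 448 ± 139 CPM in the naive gate and 14.7 ± 27.1 CPM in the effector gate. G0s2, which encodes an inhibitor of triglyceride breakdown, averaged 84.9 ± 59.9 CPM in the naive gate and had 1 UMI in the effector gate, with a pooled ratio of 63.8 (11.4 to 2525). Igfbp4 also had 1 UMI in the effector gate, and its pooled ratio was 253 (45.4 to 10017). The chemokine Ccl4 averaged 21.3 ± 11.1 CPM in the naive gate and 2283 ± 1819 CPM in the effector gate. Of the co-inhibitory receptors, Tigit averaged 7.43 ± 4.75 against 298 ± 343 CPM and Ctla4 2.31 ± 2.32 against 55.2 ± 22.6 CPM. Tnfrsf9 (4-1BB), an activation-induced receptor, averaged 28.9 ± 8.85 against 497 ± 164 CPM.

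Il27ra, the specific chain of the IL-27 receptor, averaged 173 ± 32.3 CPM in naive-gate CD8 T cells and 90.2 ± 42.6 CPM in the effector gate (n = 5 wells each), and was higher in 5 of 5 wells. It was called higher on the TMM scale but not on library totals (log2 fold change 0.98, edgeR adjusted p = 0.0556). Its effector-gate values rest on few UMIs, since IL-27 wells 1 and 3 and PBS well 1 held 21309, 31883 and 35931 UMIs of all genes there. Effector-gate CD8 T cells from PBS well 2 outnumber those of the other wells, and without that well 270 genes were higher and 102 lower.

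Naive-gate CD4 T cells were chosen by a similar rule, with at least 1 UMI of Cd4 and 0 of Cd8a, Cd8b1 and Foxp3. That lineage threshold was looser than the 2 UMIs of Cd8a and Cd8b1 in the CD8 gate. In the comparison with these cells, the naive genes were required in both gates and the lineage genes differed by choice. Of 7725 genes tested by edgeR with the well as a block, 1025 were higher in naive-gate CD8 T cells (13.3%) and 995 lower (12.9%). This count depends on scaling. Ribosomal protein genes took 38.4 to 41.0% of UMIs in naive-gate CD8 T cells and 28.6 to 30.6% in naive-gate CD4 T cells. TMM scaling set the median log2 fold change to -0.02, and on library totals it was -0.33, with 489 genes higher and 3311 lower. The changes below are on the TMM scale. Of 8 cytotoxic genes tested 6 rose and 2, Fasl and Id2, fell, on either scale. All 5 tested markers of CD4 and regulatory T cells fell, and both tested gamma-delta markers, Trgv2 and Trdc, rose, also on library totals. Trdc averaged 97.4 ± 72.0 CPM in naive-gate CD8 T cells and 23.3 ± 6.97 CPM in naive-gate CD4 T cells, and Trgv2 25.3 ± 9.63 against 2.38 ± 2.77 CPM. The part of gamma-delta T cells in the rises below was not tested.

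Among the genes that rose, Gzmm averaged 103 ± 62.1 CPM in naive-gate CD8 T cells and 0.173 ± 0.387 CPM in naive-gate CD4 T cells (1 UMI in all), with a pooled ratio of 544 (97.4 to 21516). Ccl5 averaged 1583 ± 591 CPM in the CD8 gate and 24.4 ± 29.3 CPM in the CD4 gate (log2 fold change 6.19 ± 0.20). The granule protein gene Nkg7 averaged 682 ± 57.8 against 29.9 ± 19.7 CPM, higher in 5 of 5 wells. The NK-type receptor genes Klrd1 (CD94) and Klrk1 (NKG2D) averaged 161 ± 10.2 against 4.87 ± 3.84 CPM and 58.8 ± 26.8 against 1.11 ± 1.10 CPM. Xcl1, a chemokine for cross-presenting dendritic cells, averaged 105 ± 81.4 against 2.07 ± 2.27 CPM. Of 11 virtual memory genes tested 10 rose, while 13.3% of all genes did. Their median log2 fold change was 4.73 against -0.02 over all genes, and 10 rose and 1 fell on library totals. The gene that fell was Cd44 (log2 fold change -0.69, edgeR adjusted p = 0.0013), which was not called on the TMM scale. Ly6c2 and Nkg7 of this list are also in the list of CD8 lineage genes, so the count is not specific to virtual memory. Eomes averaged 126 ± 46.9 against 23.7 ± 20.2 CPM and Il2rb 301 ± 44.1 against 169 ± 29.0 CPM, each higher in 5 of 5 wells.

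The 5 markers of CD4 and regulatory T cells that fell were Cd40lg, Tnfrsf4, Izumo1r, Ctla4 and Ikzf2, with a median log2 fold change of -3.45. Cd40lg, the CD40 ligand that helps B cells, averaged 0.801 ± 1.08 CPM in naive-gate CD8 T cells and 77.3 ± 47.5 CPM in naive-gate CD4 T cells. Zbtb7b (ThPOK), which fixes the CD4 fate in the thymus, averaged 4.39 ± 4.21 against 55.6 ± 14.5 CPM. Maf averaged 2.72 ± 2.36 against 96.5 ± 74.9 CPM, and Izumo1r (folate receptor 4) 65.0 ± 19.5 against 813 ± 102 CPM. Of 9 exhaustion and co-inhibitory genes 5 fell and none rose. Of 19 activation genes 14 fell and 1 rose (Myc). Over all genes tested 12.9% fell and 13.3% rose. The fallen ones included Nr4a1, Egr1, Egr2 and Irf4, which antigen receptor signals induce. Of the markers of regulatory T cells the naive CD4 gate excluded only Foxp3. The part of regulatory or stimulated CD4 T cells in these differences was not tested.

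The naive genes outside the rule split in direction. Of 15 tested, 4 rose, among them Il7r, Klf3 and Klf2, and 7 fell, namely Igfbp4, Bach2, Tcf7, Ets1, Il6ra, Actn1 and Foxo1. Over all 7725 genes 13.3% rose and 12.9% fell. On library totals 2 of the 15 rose and 10 fell, while over all genes 489 rose and 3311 fell. Klf2 then turned negative, with a log2 fold change of -0.10 in place of 0.22, and was at a lower CPM in the CD8 gate in 5 of 5 wells. Klf3 was at 0.16 in place of 0.48 and lost its call (edgeR adjusted p = 0.176). Igfbp4 averaged 210 ± 131 CPM in naive-gate CD8 T cells and 497 ± 219 CPM in naive-gate CD4 T cells. Of 12 IL-27 pathway genes, Socs3, Jak1 and Socs1 rose and Maf, Bcl3, Il6st, Batf and Stat3 fell on the TMM scale. On library totals none rose and 8 fell. Il6st (gp130) averaged 92.8 ± 10.3 CPM in the CD8 gate and 189 ± 54.7 CPM in the CD4 gate (log2 fold change -0.85 ± 0.09), lower in 5 of 5 wells. Il27ra averaged 173 ± 32.3 against 230 ± 28.5 CPM. Its log2 fold change was -0.12 ± 0.08 with an edgeR adjusted p of 0.318 on the TMM scale, and -0.44 with an adjusted p of 5.61e-05 on library totals.

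Between IL-27 and PBS, the pooled profile of naive-gate CD8 T cells differed by at least 1.5-fold in 393 of 7230 measured genes that were higher in IL-27 (5.44%) and 173 that were lower (2.39%). The median log2 ratio over all genes was 0.04. The wells did not overlap for 1195 genes (16.5%) that were higher in IL-27 and for 729 (10.1%) that were lower, and a lack of overlap in the genes below is read against these shares. The counts were 448 higher and 187 lower without PBS well 2, and 1842 and 2277 without PBS well 1, which leaves 10 PBS cells. No test is possible on 1 library per group. With wells taken as replicates, edgeR called 9 of 8312 genes (0.108%), 1 higher and 8 lower, and 396 had an unadjusted p under 0.05. DESeq2 called 5, all lower, and 3 were shared. The wells are captures within a library, so these p-values measure spread between wells.

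The IL-27 receptor was present in both libraries. Il27ra was at 141, 210 and 173 CPM in IL-27 wells and 141 and 201 CPM in PBS wells, and the wells overlapped. Il6st was at 93.6, 106 and 93.2 CPM in IL-27 wells and 76.8 and 94.7 CPM in PBS wells, and overlapped too. Of their transcription factors, Stat3 was at 71.3 CPM in IL-27 and 75.6 CPM in PBS. Socs3, a feedback inhibitor that STAT3 induces, was at 28.9, 65.2 and 48.2 CPM in IL-27 wells and 29.2 and 11.8 CPM in PBS wells, and overlapped at IL-27 well 1. Its log2 ratio of 0.61 was 0.36 without IL-27 well 2. The 11 measured genes of the IL-27 pathway had a median log2 ratio of 0.20, and 3 of them, Socs3 and Batf included, were at least 1.5-fold higher, against 0.04 and 5.44% over all measured genes.

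The promoters of a pair of these target genes are shown because the motifs of interferon and STAT factors can be read in them. Each is the 250 bases before the RefSeq start, build GRCm38.p6, 5' to 3' on the gene's strand (minus for both). Capitals mark matches on either strand to a GAAA followed by any 2 bases and another GAAA, the core of the interferon-stimulated response element (ISRE), or to TTCNNNGAA, the gamma-activated site (GAS) bound by STAT dimers.
Isg15, chr4:156200819-156201068: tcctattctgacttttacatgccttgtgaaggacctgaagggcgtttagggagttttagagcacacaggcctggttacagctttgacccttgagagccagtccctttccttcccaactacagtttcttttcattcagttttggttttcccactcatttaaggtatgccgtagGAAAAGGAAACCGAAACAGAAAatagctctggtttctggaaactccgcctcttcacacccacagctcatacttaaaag
Socs3, chr11:117969367-117969616: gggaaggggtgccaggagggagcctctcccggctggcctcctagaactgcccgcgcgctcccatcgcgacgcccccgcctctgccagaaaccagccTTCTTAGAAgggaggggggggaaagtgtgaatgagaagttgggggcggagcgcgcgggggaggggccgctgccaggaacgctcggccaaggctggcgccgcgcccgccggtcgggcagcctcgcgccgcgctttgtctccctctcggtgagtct

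In Isg15 a run of 3 overlapping ISRE matches began 78, 72 and 66 bases before the start. Socs3 held 1 GAS match beginning 154 bases before it. The ISRE core was in 2.98% of all 32851 promoter windows of this length. By gene, it was in 13 of the 27 interferon-response genes with an entry (48.1%), against 3.46% of all 27025 genes. The GAS core was in 7.02% of all windows and 8.13% of all genes, in 8 of those 27 genes, and in 2 of 11 IL-27 pathway genes (Socs3 and Il12rb2). A match is a description of letters and not of binding.

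Interferon-stimulated genes were higher in IL-27 chiefly in 1 well. Isg15, a ubiquitin-like antiviral protein, was at 38.1, 148 and 40.1 CPM in IL-27 wells and 29.2 and 47.3 CPM in PBS wells. IL-27 well 2 was far above the rest, and the other wells overlapped. The pooled levels were 65.5 CPM in IL-27 and 30.4 CPM in PBS, a ratio of 2.16 (1.55 to 3.07). Without IL-27 well 2 the log2 ratio was 0.34 in place of 1.08. It was 0.93 in cells with at least 3 Ccl5 UMIs and 1.18 in cells with 0. The share of cells with an Isg15 UMI was 12.9%, 20.9% and 14.5% in IL-27 wells, against 14.3% and 30.0% in PBS wells. Ifit1 and Ifit3, antiviral RNA-binding proteins, showed the same well, at 6.57, 46.2 and 7.59 CPM in IL-27 against 6.68 and 0 CPM in PBS, and at 10.8, 62.1 and 7.59 CPM in IL-27 against 5.01 and 11.8 CPM in PBS.

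Of 33 measured interferon-response genes, 7 were at least 1.5-fold higher in IL-27 (Isg15, Isg20, Ifit1, Ifit3, Ly6a and Slfn5 among them), 1 was lower (Oas1a) and 26 lay above 0. Over all measured genes 5.44% were higher and 2.39% lower by that size. The median log2 ratio was 0.21, against 0.04 over all genes. Without IL-27 well 2 it was 0.01. Summed over the list, cells with at least 3 Ccl5 UMIs held 3605 CPM in IL-27 and 3707 CPM in PBS, and cells with 0 held 4054 CPM in IL-27 and 3834 CPM in PBS. Ly6a (Sca-1), which interferons induce, was at 25.6, 199 and 114 CPM in IL-27 wells and 46.7 and 11.8 CPM in PBS wells, and overlapped. Its log2 ratio of 1.05 was 0.40 without IL-27 well 2 and, by Ccl5 range, 0.02 in cells with at least 3 UMIs and 0.68 in cells with 0. In naive-gate CD4 T cells of the same libraries Isg15 was at 94.6 CPM in IL-27 and 209 CPM in PBS. By well it was at 79.7, 103 and 101 CPM in IL-27 and 230 and 22.7 CPM in PBS, so PBS well 2 lay below the IL-27 wells. The difference between the cell types was not tested.

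Some of the other named genes higher in IL-27 had wells that did not overlap, as 16.5% of all measured genes did in this direction. Itga4, the integrin alpha-4 chain, was at 41.1, 72.2 and 73.2 CPM in IL-27 wells and 28.4 and 23.7 CPM in PBS wells. It was also lower in Ccl5-positive cells, and its log2 ratio was 0.99 in cells with at least 3 Ccl5 UMIs and 0.43 in cells with 0. Rflnb was at 128, 174 and 152 CPM in IL-27 wells and 87.7 and 118 CPM in PBS wells. Nlrc5, the transactivator of MHC class I genes, was at 47.6, 55.1 and 54.7 CPM in IL-27 wells and 30.1 and 47.3 CPM in PBS wells. It was the 1 member of 17 measured MHC class I genes past 1.5-fold. Retreg3, Sh2d1a, Sesn1, Rab3ip and Cyfip2 were 1.59- to 1.91-fold higher with no overlap, and Id2 was 1.89-fold higher with overlapping wells. Osbpl6, which encodes an oxysterol-binding-type protein, was the 1 gene called higher over wells. It was at 35.8, 43.7 and 55.8 CPM in IL-27 wells and 12.5 and 11.8 CPM in PBS wells (edgeR adjusted p = 0.0175, DESeq2 adjusted p = 1.0).

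**Figure D4:**
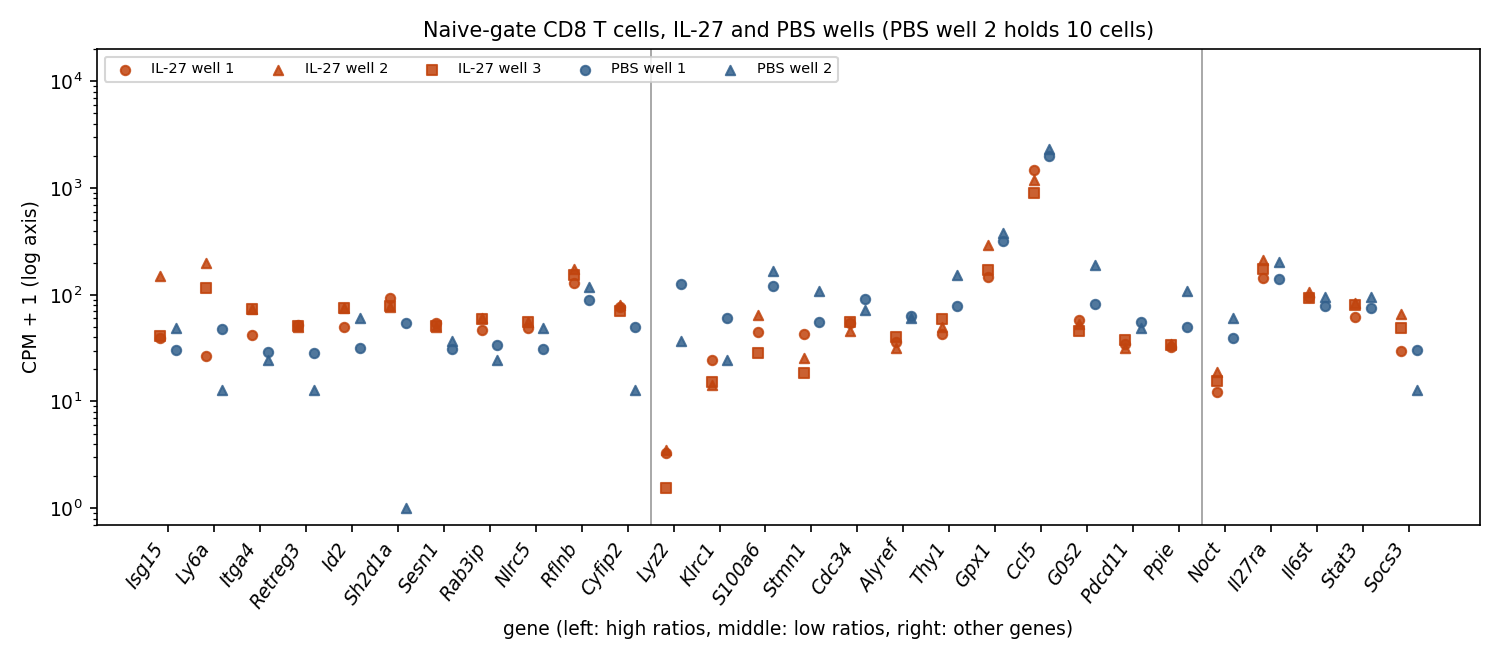
Expression (CPM + 1, log axis) in naive-gate CD8 T cells of each IL-27 and PBS well for the 11 genes with high pooled IL-27 to PBS ratios (left), 12 with the lowest ratios (middle) and 5 others (right). Isg15 stands out in IL-27 well 2 alone (148 CPM), and Ly6a in IL-27 wells 2 and 3 (199 and 114 CPM). The 3 IL-27 wells lie above both PBS wells for Itga4 and Rflnb and below both for Ccl5, S100a6 and Noct.

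Of 11 measured virtual memory genes 1, Ccl5, was at least 1.5-fold lower in IL-27 (2.39% of all genes were) and none was higher, and the median log2 ratio was -0.12. Ccl5 was at 1464, 1182 and 908 CPM in IL-27 wells and 2015 and 2344 CPM in PBS wells (log2 ratio -0.72). Its edgeR adjusted p over wells was 0.0338 and the DESeq2 one 0.165. Within cells with at least 3 Ccl5 UMIs the log2 ratio of Il2rb was -0.19 and that of Gzmm 0.09. That of Ccl5 was -0.11 there. The range was cut on Ccl5 itself, so this value cannot show whether the Ccl5 difference holds within like cells. Klrc1 (NKG2A), an inhibitory receptor whose reads may be shared with Klrc2, was at 23.6, 13.3 and 14.1 CPM in IL-27 wells and 59.3 and 23.7 CPM in PBS wells. Without PBS well 1 its log2 ratio was -0.35 in place of -1.58. S100a6 was at 44.0, 64.0 and 27.6 CPM in IL-27 wells and 119 and 166 CPM in PBS wells. Both stayed lower within the Ccl5 ranges, with log2 ratios of -1.08 and -1.63 for Klrc1 and -1.27 and -0.98 for S100a6, in cells with at least 3 and with 0 Ccl5 UMIs.

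Noct (nocturnin), a rhythmically expressed phosphatase, was at 11.2, 17.7 and 14.6 CPM in IL-27 wells and 38.4 and 59.2 CPM in PBS wells, with no overlap. Its log2 ratio was -1.47, the edgeR adjusted p over wells 0.0173 and the DESeq2 one 1.0. In cells with at least 3 Ccl5 UMIs its log2 ratio was -1.73 and in cells with 0 it was -0.93. In naive-gate CD4 T cells Noct was at 14.2 CPM in IL-27 and 73.9 CPM in PBS, but PBS well 2 had 0. Stmn1, Cdc34, Alyref, Thy1, Gpx1, G0s2, Pdcd11 and Ppie were at 0.533 to 0.621 of the PBS level in IL-27, without overlap of the wells, which 10.1% of all measured genes also showed in this direction. Crip1, called over wells by edgeR, was at 224, 229 and 252 CPM in IL-27 wells and 350 and 391 CPM in PBS wells.

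The remaining calls over wells were myeloid genes. Lyz2 (lysozyme) was at 1.86 CPM in IL-27 and 120 CPM in PBS, where 1 cell of PBS well 1 held 142 UMIs. Without that cell its log2 ratio was -1.87 in place of -5.41, and 16 members had a Lyz2 UMI. Tyrobp and Fcer1g likewise had 23 of 40 and 15 of 24 PBS UMIs in 1 cell of PBS well 1. Summed myeloid markers were at 163, 203 and 168 CPM in IL-27 wells and 331 and 1634 CPM in PBS wells. Summed NK markers were at 11.6 CPM in IL-27 and 39.0 CPM in PBS. Tyrobp, with its 1 leading cell, is also in the NK list and was the only member with enough UMIs to be measured. Gamma-delta T cell markers were at 96.8 CPM in IL-27 and 167 CPM in PBS. Trdc was at 50.3, 66.5 and 66.1 CPM in IL-27 wells and 79.3 and 225 CPM in PBS wells. Summed B cell markers were at 280 CPM in IL-27 and 278 CPM in PBS. The part of such cells or RNA in the results was not tested.

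The genes of the naive program differed by less than 1.5-fold between the libraries. None of the 15 outside the rule passed that size, but 14 of them had log2 ratios above 0. Their median log2 ratio was 0.21, against 0.04 over all measured genes. The wells did not overlap for 8 of the 15, each higher in IL-27, while 16.5% of all measured genes showed this. The cause of this small shift was not tested. Igfbp4 was at 133, 351 and 335 CPM in IL-27 wells and 183 and 47.3 CPM in PBS wells, and overlapped. Among 6 measured genes of recent thymic emigrants Sox4, Ikzf2 and Ccr9 were at least 1.5-fold higher and Cd24a lower, against 5.44% and 2.39% of all measured genes. Without PBS well 1, which leaves 10 PBS cells, the log2 ratios of Sox4, Ikzf2 and Ccr9 turned to -1.50, -0.44 and -0.10. The median log2 ratio of the 6 genes, 0.36, rested on genes with few UMIs in PBS, where Sox4 had 13 and Ccr9 had 6. Sox4, Ikzf2 and Ccr9 were also lower in cells with at least 3 Ccl5 UMIs, which were a larger share of PBS members. In those cells the log2 ratio of Sox4 was 0.17, and in cells with 0 Ccl5 UMIs it was -0.08. That of Ccr9 was 0.85 (2 UMIs in IL-27 and 0 in PBS) and 0.43. None of 20 T cell receptor signalling genes and none of 14 cytokine receptor genes passed 1.5-fold.

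Because RNA was read from the 5' end, T cell receptor variable genes could be counted. Trbv1 could not be used. It had a UMI in 55.1% of naive-gate CD8 T cells and in 73.0% of B cells, so a UMI of it does not mark the receptor that a cell uses. It was also the leading gene in 48.3% of 802 naive-gate CD4 T cells with a single leading Trbv gene. Whether its UMIs came from the transgenic receptor of these mice, from free RNA or from the counting was not tested. With Trbv1 left out and at least 2 UMIs needed, a choice made after seeing the data, 960 of the members had a leading Trbv gene, while 2 of 18361 B cells did. Reads of close V genes may be shared among them.

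The members used many beta chain V genes. The 960 cells held 20 Trbv genes. Trbv13-2 led 16.4% of cells (14.1 to 18.9%), Trbv19 15.0% and Trbv13-1 10.5%. The inverse Simpson index, the number of equally common genes that would give the same diversity, was 11.0. It was 10.98 in IL-27 and 10.75 in PBS, and Trbv13-2 led 16.4% of IL-27 and 16.3% of PBS cells. In effector-gate CD8 T cells 175 cells gave an index of 2.17, and Trbv30 led 117 of them (66.9%), each from PBS well 2. Trbv30 led 7 of the 960 naive-gate CD8 T cells (0.729%) and none of 153 from PBS, with an exact 95% interval reaching 2.38%. In naive-gate CD4 T cells, 407 cells gave an index of 8.49, Trbv31 led 18.4% against 6.88% in naive-gate CD8 T cells, and Trbv20 10.8% against 2.19%. Leaving out Trbv1 kept a V gene with at least 2 UMIs in 42.7% of naive-gate CD4 and 78.9% of naive-gate CD8 T cells. With Trbv1 kept, the index was 4.59 in the CD4 gate and 11.8 in the CD8 gate, so the CD4 index depended on this choice.

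**Figure D5:**
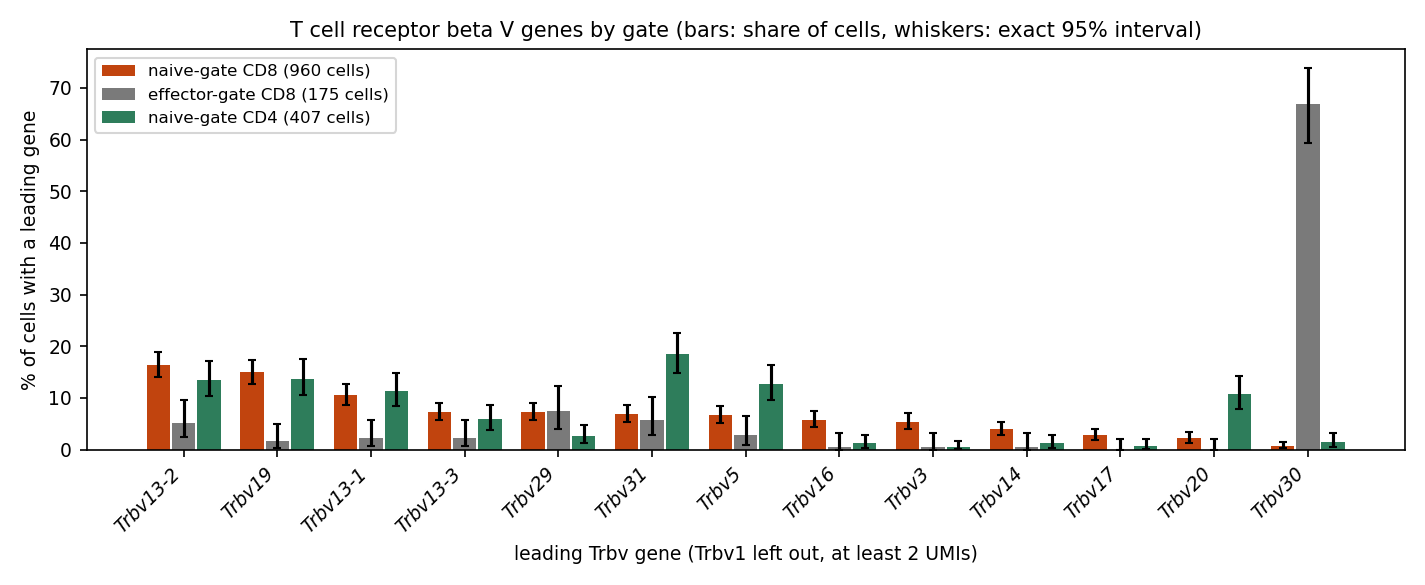
Share of cells (%) led by each Trbv gene, Trbv1 left out, in naive-gate CD8, effector-gate CD8 and naive-gate CD4 T cells, with exact 95% intervals. Trbv30 stands at 66.9% in the effector gate and 0.729% in naive-gate CD8 T cells, whose most used gene, Trbv13-2, reaches 16.4%.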

How the data were processed

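Single-cell RNA was measured in 1 IL-27 and 1 PBS library. Per the submitters' processing notes, Cell Ranger 3.0.0 and mm10 were used, although the software version in the headers of the matrices is 3.1.0. The values the authors deposited are raw UMI counts of genes by barcode, whole numbers with no normalization. Cells with at least 200 genes and at most 10% mitochondrial UMIs were kept, and doublets were called per well with Scrublet (scanpy 1.11.5) as an alternative. It marked 4.17, 2.53 and 2.00% of IL-27 cells and 1.58 and 0.0183% of PBS cells by well, and the last call was not used.

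UMIs were summed per gate and well. Levels are CPM over all genes, and log2 ratios use a pseudocount of 1 CPM. A gene was measured where it had 20 UMIs in all and at least 10 CPM in either library. Gates were compared with edgeR 4.0.16 (filterByExpr, TMM, quasi-likelihood, well as block, adjusted p under 0.05), with DESeq2 1.42.0 as an alternative, each tested on simulated data. Wells pair the gates because both gates come from the same well. The 5 wells are not mice, so p-values measure the spread between wells, which may be technical. Intervals at 95% are exact and cover counting error only. Named genes were the 12 highest and 12 lowest ratios or fold changes with at least 50 CPM, and for IL-27 against PBS at least 100 UMIs. Ribosomal protein, mitochondrial, sex-linked, antigen receptor and unnamed genes were not named by the rule. Noct, Osbpl6, Crip1, Tyrobp, Fcer1g and list members were named beside these, and some genes that the rule names are not reported here. Members and lists were chosen with earlier results of these data known, and the Ccl5 ranges after the values were seen. Promoters come from RefSeq, where 27 of 38 interferon-response and 11 of 16 IL-27 pathway genes had an entry.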

Additional observations from a re-analysis of the deposited data

How the results depend on the processing

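Shares depended most on the wells. The ratio of the IL-27 to the PBS share of filtered cells was 2.56 without IL-27 well 1, 27.6 without PBS well 1 and 1.76 without PBS well 2, a range of 1.76 to 27.6. The ratio for CD8 T cells ranged from 1.01 to 17.5 with a well left out and was 2.66 when cells were thinned to 1000 UMIs. Genes at least 1.5-fold higher in IL-27 numbered 1175 after thinning, 62 with a pseudocount of 10 CPM, 990 without the filter, 1 by edgeR and 0 by DESeq2 over wells, and 379 to 1842 with a well left out. Genes at least 1.5-fold lower numbered 542, 40, 880, 8 and 5 under those settings, and 187 to 2277 with a well left out. The extremes of 1842 and 2277 came without PBS well 1, which leaves 10 PBS cells. The IL-27 pathway median ranged from 0.13 to 0.51 and the interferon-response median from 0.01 to 0.56 with a well left out.

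Signs turned for the log2 ratios of Ly6a (-0.0013), Ppie (0.18) and Sox4 (-0.20) after thinning. With a well left out, Sox4 ranged from -1.50 to 1.00, Ikzf2 from -0.44 to 0.79, Ccr9 from -0.10 to 1.64, Per1 from -0.10 to 0.81 and Isg20 from -0.60 to 1.14, each negative without PBS well 1. Slfn5 ranged from -0.48, without IL-27 well 2, to 3.72. The cause was not tested.

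Against the effector gate, genes higher numbered 89 after thinning, 718 with no replicate block, 114 on library totals and 168 to 270 with a well left out. Genes lower numbered 34 after thinning, 286 without a filter, 556 with no replicate block, 126 by DESeq2, 352 on library totals and 43 to 116 with a well left out. Against naive-gate CD4 T cells, genes higher numbered 364 after thinning, 489 on library totals and 825 to 1092 with a well left out. Genes lower numbered 298 after thinning, 628 by DESeq2, 3311 on library totals and 739 to 1061 with a well left out. Of the named gate differences, Cxcr6 lost its call by DESeq2 (adjusted p 0.249). Library totals, Ccl5 ranges and the leading-cell and Trbv1 alternatives were added after seeing the data. No paired analysis of IL-27 against PBS was possible because the labels give each group 1 sample and pair no wells.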
